A study of Mus musculus with 6 samples.

Results

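A set of 9 genes that mark homeostatic microglia was measured in the irradiated mouse cortex: P2ry12, P2ry13, Tmem119, Cx3cr1, Csf1r, Sall1, Siglech, Gpr34 and Olfml3. They were chosen by gene name as a measure of microglial content and state, and all 9 were found among the 51826 gene IDs of the deposited tables. Poly(A) RNA came from the cortex of BALB/c male mice, 6 to 8 weeks old by the study's methods, on day 3 after whole-brain X-ray irradiation with a single dose of 10 Gy. The groups were Lgmn+/+-IR, wild-type mice (n = 3), and Lgmn-/--IR, mice lacking Lgmn, the gene of the lysosomal cysteine protease AEP (n = 3). The study's methods describe the knockout mice as Lgmn flox/flox: Cre+ animals derived from an ES cell clone, with the Neo cassette removed by Flp, and do not name the driver of Cre. All 6 mice were irradiated. None of the 6 libraries came from a non-irradiated mouse, and every difference lies between genotypes after irradiation. Each library is labelled as a separate replicate, and the p values measure the spread between these libraries.

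Microglia are the resident macrophages of the brain. In the undisturbed tissue they carry purinergic and chemokine receptors on fine processes, depend on signals through the receptor tyrosine kinase CSF1R for survival, and hold their identity through TGF-beta signalling and transcription factors such as SALL1. Many of the genes used to mark this state are known to fall when microglia are activated, and some of them, such as Csf1r and Cx3cr1, are also used by other myeloid cells. In RNA of whole tissue, fewer microglia and less RNA of these genes in each microglial cell cannot be told apart.

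Lgmn was lower in the knockout but was not at 0. Wild-type libraries had 5558, 5528 and 5775 counts of it and knockout libraries 3703, 3269 and 4109, with a log2 fold change of -0.64 (adjusted p = 0.0315, edgeR's quasi-likelihood test). The call was lost under 6 of 16 alternatives (adjusted p 0.0632 to 0.131), namely no filter on low counts, a replicate block, and leaving out any wild-type library or Lgmn-/--IR replicate 1. The counts do not show which part of the gene was deleted. Total counts ranged from 41874462 to 46829441 per library. All 7 cortex markers, among them Slc17a7 and Tbr1, were found in every library. In edgeR 0 of them passed the adjusted threshold, against 3.33% of all genes, and 0 an unadjusted p under 0.05, against 18.6%. The Lgmn-/--IR libraries stood apart in blood and myelin RNA. The 5 erythroid markers (hemoglobin genes and Alas2) summed to 7.59 to 15.8 CPM (counts scaled to library size with edgeR's TMM method) in Lgmn+/+-IR, but to 2273, 1728 and 234 CPM in Lgmn-/--IR replicates 1, 2 and 3. The 6 oligodendrocyte markers summed to 3862 ± 400 and 2314 ± 84.7 CPM (mean ± SD, n = 3 each). edgeR called 5 of them lower, among them Mobp, Mog and Cnp, against 3.33% of all genes called in either direction. The remaining marker, Mbp, also had a negative log2 fold change (-0.24, adjusted p = 0.41, edgeR). The part of either difference in the results below was not tested.

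None of the homeostatic genes passed the adjusted threshold in edgeR, and Csf1r was the only one whose libraries separated. Their counts ran from 99 to 2790 per library, all 9 passed the filter on low counts, and together they made up 0.0150% to 0.0191% of all counts. With edgeR's quasi-likelihood test over 18345 genes, 0 of 9 had an adjusted p under 0.05, against 3.33% of all genes tested, and 0 of 9 also passed an absolute log2 fold change of 1, against 2.06%. At an unadjusted p under 0.05 there was 1 of 9, against 18.6% of all genes, and that gene was Csf1r. DESeq2 called 1 of 9 after adjustment, again Csf1r, and 1423 of all 18345 genes. Only Csf1r had groups that did not overlap, 1 of 9 against 25.7% of all genes, and it was lower in the knockout, the direction in which 13.3% of all genes had groups without overlap. There were 7 genes with a negative and 2 with a positive log2 fold change, and the median was -0.19 beside -0.01 over all genes tested. The fitted 95% interval lay within a 2-fold change in either direction for 7 of 9 genes and ran further down for Cx3cr1 and Olfml3.

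**Figure D1:**
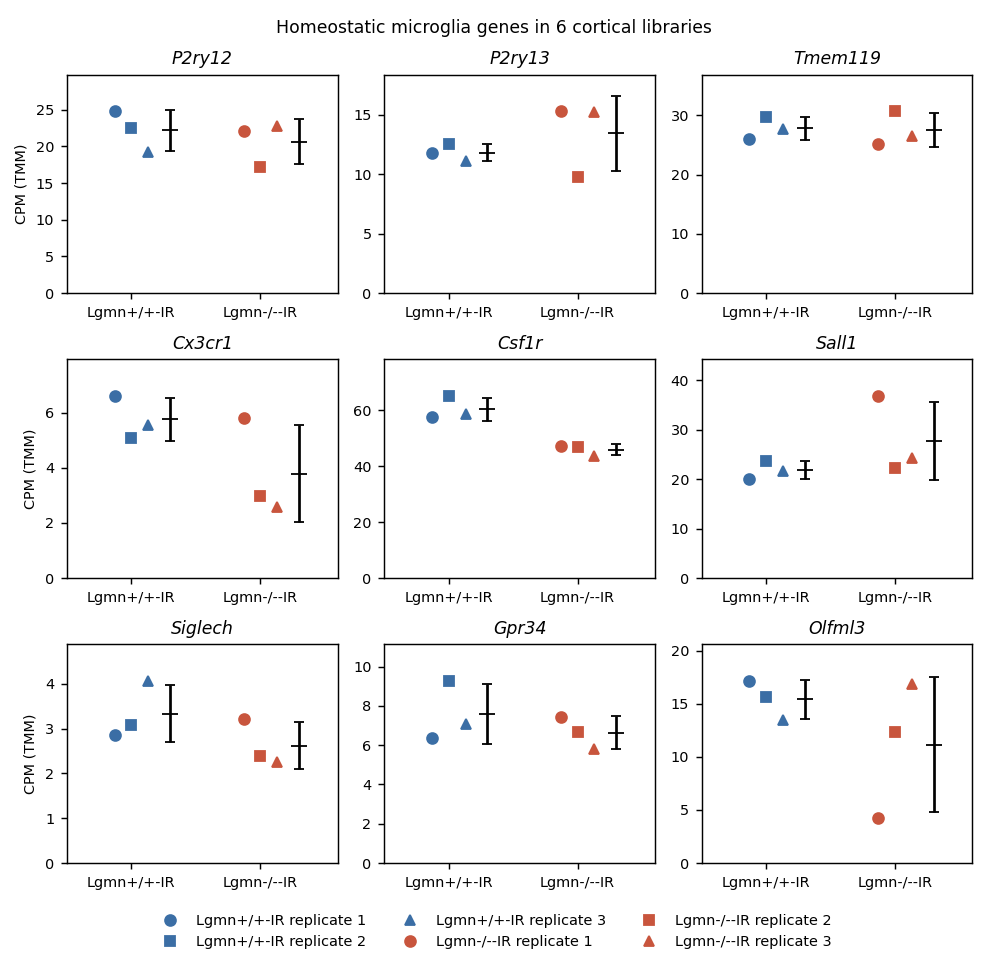
CPM (counts scaled to library size by TMM, vertical axes from 0) of the 9 homeostatic genes in each library, Lgmn+/+-IR in blue and Lgmn-/--IR in red, with the mean ± SD (n = 3) in black beside each group. Csf1r is the only gene whose groups do not overlap, and single Lgmn-/--IR libraries lie far from the others for Olfml3 and Sall1.

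**Figure D2:**
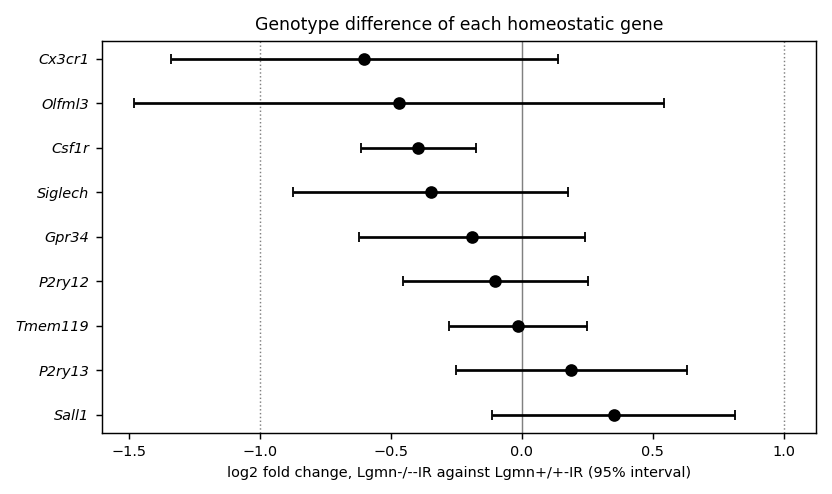
Fitted log2 fold change of each homeostatic gene, Lgmn-/--IR against Lgmn+/+-IR, with its 95% interval from edgeR (horizontal axis), and dotted lines at a 2-fold change in either direction. The interval of Csf1r, from -0.61 to -0.18, is the only one of the 9 that excludes 0.

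Per length of transcript, the genes fell into an upper and a lower tier. In Lgmn+/+-IR, P2ry12 had an FPKM (deposited, scaled by the length of the transcript and by the library) of 11.8 ± 1.25, Csf1r 11.5 ± 0.92 and Tmem119 11.1 ± 0.80 (SD, n = 3), and the libraries of these neighbours in the order overlapped. A gap followed. The FPKM of P2ry13 was 4.17, of Sall1 3.69, of Gpr34 3.46, of Olfml3 2.68, of Siglech 1.95 and of Cx3cr1 1.25, and each overlapped with the next. The Lgmn-/--IR libraries had the same 3 genes at the top, with Tmem119 at 10.8, P2ry12 at 10.7 and Csf1r at 8.52 FPKM, the libraries of neighbours again overlapping. Below them came P2ry13 at 4.58 and Sall1 at 4.57 FPKM, then, apart from them, Gpr34 at 3.02, Olfml3 at 1.89, Siglech at 1.23 and Cx3cr1 at 0.845 FPKM. Csf1r thus stood in place 2 of 9 in Lgmn+/+-IR and in place 3 in Lgmn-/--IR, without separating from its neighbour above in either.

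P2ry12 and P2ry13 encode purinergic receptors for ADP, and P2RY12 guides the processes of resting microglia toward released nucleotides. Both lie on the minus strand of chromosome 3 of GRCm38, P2ry12 at chr3:59216272-59262871 and P2ry13 at chr3:59207892-59210882, 5.39 kb apart and inside the opposite-strand gene Med12l. Their promoters are shown because the neighbours were compared as a pair. Each window covers 250 bases before and 50 after the annotated start (RefSeq, GRCm38.p6), chr3:59262936-59263235 for P2ry12 and chr3:59210833-59211132 for P2ry13, both on the minus strand. That of Siglech (chr7:55767934-55768233, plus strand) is added because it holds the other match of the search. Capitals mark GAGGAA, the core of the site bound by the myeloid factor PU.1, or TTCCTC, the same letters on the opposite strand.
P2ry12: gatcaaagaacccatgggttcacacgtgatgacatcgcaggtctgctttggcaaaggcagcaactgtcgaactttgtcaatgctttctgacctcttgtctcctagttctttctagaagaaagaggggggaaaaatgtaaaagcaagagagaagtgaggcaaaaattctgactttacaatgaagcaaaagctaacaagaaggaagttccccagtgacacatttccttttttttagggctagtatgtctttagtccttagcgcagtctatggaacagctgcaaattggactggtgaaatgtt
P2ry13: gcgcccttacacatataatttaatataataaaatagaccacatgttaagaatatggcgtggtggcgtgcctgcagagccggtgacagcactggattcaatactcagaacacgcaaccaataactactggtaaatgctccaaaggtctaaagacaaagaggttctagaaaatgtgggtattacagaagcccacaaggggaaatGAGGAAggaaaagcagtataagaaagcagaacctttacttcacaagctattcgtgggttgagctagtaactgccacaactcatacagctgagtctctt
Siglech: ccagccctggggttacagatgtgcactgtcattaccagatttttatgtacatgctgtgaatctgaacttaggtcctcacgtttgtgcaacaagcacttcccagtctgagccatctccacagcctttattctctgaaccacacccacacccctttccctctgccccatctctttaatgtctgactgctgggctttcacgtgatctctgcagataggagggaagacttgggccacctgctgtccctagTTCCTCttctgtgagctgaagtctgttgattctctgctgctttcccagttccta
Windows were found for 6 of the 9 genes, 8 windows in all. GAGGAA occurred on either strand in 2 of these 8 windows, and in 28.3% of 32851 mouse windows of this length. The match of P2ry13 begins 48 bases before the start. That of Siglech begins 4 bases before the start and runs across it. The longer GAGGAAGT, which contains GAGGAA, occurred in 0 of the 8 and in 3.20% of all windows. The windows of P2ry12 and P2ry13 each held 42.3% G and C, and the median of all windows was 52.7%. A match of letters is a description and not a bound site.

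The genotypes overlapped for both purinergic receptors. P2ry12 stood at 24.8, 22.4 and 19.2 CPM in Lgmn+/+-IR replicates 1 to 3 and at 22.1, 17.1 and 22.7 CPM in Lgmn-/--IR replicates 1 to 3. Lgmn-/--IR replicate 2 was the lowest of the 6, and the other two knockout libraries lay inside the wild-type range. On the log2 scale the difference was -0.10 (standard error, SE, 0.15, adjusted p = 0.760, edgeR), and the interval ran from 73.0% to 119% of the wild-type level. P2ry13 had 11.8, 12.5 and 11.1 CPM in wild-type libraries against 15.3, 9.78 and 15.2 CPM in knockout libraries. Again Lgmn-/--IR replicate 2 was the lowest of the 6, while replicates 1 and 3 were above every wild-type library. Its log2 fold change was 0.19 (SE 0.19, adjusted p = 0.640, edgeR). So within the knockout both neighbours had their lowest level in the same library.

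No other gene of the locus was called. Med12l, a large gene of the Mediator complex that surrounds the receptors, had 31.6 ± 1.92 and 31.6 ± 1.64 CPM (SD, n = 3 each; log2 fold change 0.00). It shares 9 exonic bases with P2ry12 and 0 with P2ry13. P2ry14, a receptor for UDP-sugars in the same cluster, had 1.83 ± 0.32 and 2.75 ± 0.73 CPM (log2 fold change 0.59, adjusted p = 0.280, edgeR). Gpr171 had 0 to 2 counts and was not tested.

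Gpr34, which encodes a lysophosphatidylserine receptor of the same wider receptor family, lies on the X chromosome (chrX:13632089-13640858, plus strand) inside Cask on the opposite strand, with 0 shared exonic bases. It had 6.35, 9.27 and 7.10 CPM in wild-type libraries against 7.45, 6.68 and 5.79 CPM in knockout libraries. Knockout replicates 1 and 2 lay inside the wild-type range and replicate 3 was the lowest of the 6. edgeR gave a log2 fold change of -0.19 (SE 0.18, adjusted p = 0.629).

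Tmem119, a transmembrane protein of unsettled function that is widely used to tell microglia from blood-derived macrophages, had the smallest difference of the 9 genes. It lies at chr5:113793729-113800516 on the minus strand. It had 25.9, 29.7 and 27.7 CPM in wild-type libraries against 25.2, 30.7 and 26.5 CPM in knockout libraries, means of 27.8 ± 1.87 and 27.5 ± 2.89 CPM (SD, n = 3 each). The highest and the lowest library were both knockout libraries, so the wild-type range lay within that of the knockout. The fitted log2 fold change was -0.02 (SE 0.11, adjusted p = 0.955, edgeR), and the interval ran from 82.4% to 119% of the wild-type level.

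Csf1r stood at 76.0% of the wild-type mean in the knockout on the CPM scale. It encodes the receptor for CSF1 and IL-34 on which microglial survival depends, and lies at chr18:61100598-61132149 on the plus strand. It had 57.5, 65.2 and 58.6 CPM in Lgmn+/+-IR (60.4 ± 4.12, SD, n = 3) and 47.4, 46.7 and 43.7 CPM in Lgmn-/--IR (45.9 ± 1.98). Every knockout library was below every wild-type library, and the knockout libraries lay closer together than those of any other of the 9 genes, with a coefficient of variation of 4.32%. On the log2 scale the difference was -0.40 (SE 0.093, unadjusted p = 0.00354, adjusted p = 0.0731, edgeR), which missed the threshold after adjustment. With DESeq2 the log2 fold change was -0.39 and the adjusted p 0.0127, and over 16 alternatives the adjusted p ran from 0.0127 to 0.252. The interval ran from 65.3% to 88.5% of the wild-type level. Csf1r shares 873 exonic bases, 15.1% of its own, with Hmgxb3 on the opposite strand, which had 2681 to 3261 counts, and the strand setting of the counting is not given in the sources used here.

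The ligands of this receptor had overlapping groups. Csf1 had 18.6 ± 2.87 CPM in wild-type libraries against 18.6 ± 1.19 CPM in knockout libraries, and Il34, the ligand made mainly by neurons, had 53.1 ± 4.06 and 53.0 ± 4.57 CPM (SD, n = 3 each). Both log2 fold changes were 0.00 to 2 decimals and took either sign under other settings.

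Cx3cr1 and its ligand both reached low levels in knockout libraries, of which only Lgmn-/--IR replicate 3 was low in both. Cx3cr1, the receptor through which microglia sense neuronal fractalkine, lies at chr9:119901616-120069879 on the minus strand. It had 6.61, 5.09 and 5.56 CPM in wild-type libraries against 5.81, 2.99 and 2.57 CPM in knockout libraries. Knockout replicates 2 and 3 were below every wild-type library, and replicate 1 lay inside the wild-type range. Its log2 fold change of -0.60 had the largest size among the 9 genes (SE 0.31, unadjusted p = 0.0958, adjusted p = 0.358, edgeR), and the interval ran from 39.5% to 110% of the wild-type level. These were 282, 218 and 253 counts against 258, 139 and 113. Without Lgmn-/--IR replicate 1 the log2 fold change was -1.04 (adjusted p = 0.0642, edgeR).

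Cx3cl1, which encodes fractalkine, had 906, 835 and 846 CPM in wild-type libraries against 101, 1006 and 125 CPM in knockout libraries. Knockout replicates 1 and 3 stood at 11.8% and 14.5% of the wild-type mean, and replicate 2 stood at 117%, the highest library of the 6. The deposited FPKM had the same pattern, 257, 237 and 250 against 29.3, 291 and 34.7. edgeR gave a log2 fold change of -1.07 (SE 0.82, adjusted p = 0.531). Without Lgmn-/--IR replicate 2 it was -2.92 (adjusted p = 0.000564), so this library alone decides the call. Knockout replicate 1 thus had low ligand RNA with receptor RNA in the wild-type range, replicate 2 the reverse, and replicate 3 was low in both.

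**Figure D3:**
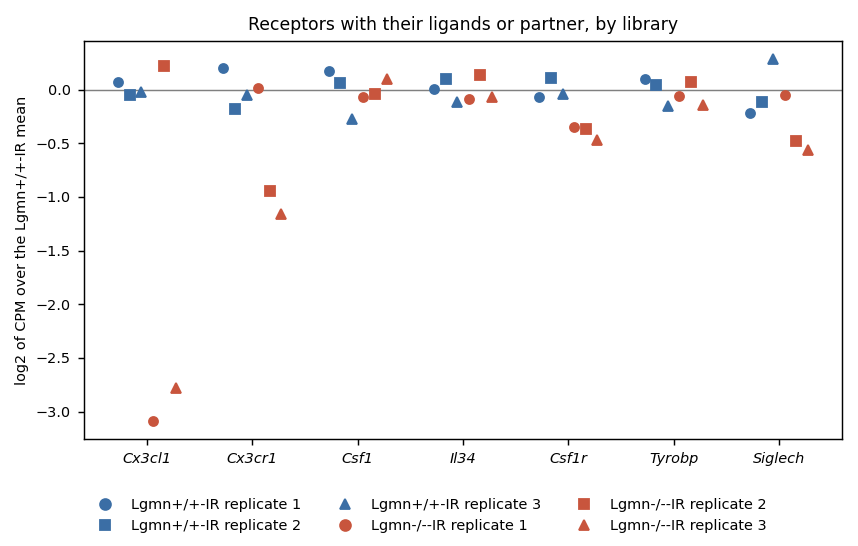
log2 of the CPM of each library over the Lgmn+/+-IR mean (vertical axis) for Cx3cl1 with its receptor gene Cx3cr1, for Csf1 and Il34 with their receptor gene Csf1r, and for the adaptor Tyrobp with Siglech. The low libraries of Cx3cl1 are Lgmn-/--IR replicates 1 and 3, those of Cx3cr1 are replicates 2 and 3, and all 3 are low for Csf1r.

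Sall1, the zinc finger transcription factor that holds microglial identity and is also expressed in neural progenitors, had the largest positive difference. It lies at chr8:89027235-89044162 on the minus strand. It had 20.0, 23.7 and 21.6 CPM in wild-type libraries against 36.8, 22.2 and 24.2 CPM in knockout libraries. Replicate 1 of the knockout was far above the other 5 libraries, replicate 2 lay inside the wild-type range and replicate 3 just above it. The fitted log2 fold change was 0.35 (SE 0.20, adjusted p = 0.392, edgeR), and it was 0.10 without Lgmn-/--IR replicate 1.

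Siglech encodes a sialic acid-binding lectin that marks microglia and plasmacytoid dendritic cells, and lies at chr7:55768178-55778925 on the plus strand. It had 2.86, 3.08 and 4.07 CPM in wild-type libraries against 3.22, 2.39 and 2.26 CPM in knockout libraries. As for Cx3cr1, knockout replicates 2 and 3 were below every wild-type library and replicate 1 lay inside the wild-type range. On the log2 scale the difference was -0.35 (SE 0.22, adjusted p = 0.455, edgeR). It was the least counted gene of the 9, with 99 to 185 counts per library. Tyrobp, named here because it encodes the adaptor through which this lectin signals, had 9.80, 9.39 and 8.20 CPM in wild-type libraries against 8.78, 9.59 and 8.27 CPM in knockout libraries, with overlapping groups (log2 fold change -0.04, adjusted p = 0.894, edgeR).

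Olfml3 encodes a secreted olfactomedin-like protein that microglia release, and lies at chr3:103722222-103738001 on the minus strand. It had 17.2, 15.6 and 13.5 CPM in wild-type libraries against 4.25, 12.4 and 16.8 CPM in knockout libraries. Knockout replicate 1 was at 34.4% of the lowest of the other 5 libraries, replicate 2 was also below the wild-type range, and replicate 3 was within it. edgeR gave a log2 fold change of -0.47 (SE 0.43, adjusted p = 0.607), and it was -0.08 without that library and -0.89 without Lgmn-/--IR replicate 3. Its coefficient of variation of 57.1% in the knockout was the highest of the 9 genes.

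The spread between libraries was larger in the knockout, given here as a description. The median coefficient of variation of the 9 genes was 11.98% in Lgmn+/+-IR, beside 11.9% over all genes tested, and 19.9% in Lgmn-/--IR, beside 14.2%. Cx3cr1 (46.4%), Sall1 (28.5%) and P2ry13 (23.6%) followed Olfml3 in the knockout. No knockout library was low throughout. Replicate 1 was below the wild-type mean for 5 genes, replicate 2 for 7 and replicate 3 for 5. Wild-type replicates 1, 2 and 3 were below that mean for 5, 2 and 8 genes. Of the 9 genes, 8 had their lowest level of the 6 libraries in a knockout library. The highest level lay in wild-type replicates 1, 2 and 3 for 3, 2 and 1 genes. For 2 genes it lay in knockout replicate 1 and for 1 in knockout replicate 2. The share of all genes with their lowest level in a knockout library was not computed.

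Summed over the 9 genes, the level was 173, 187 and 168 CPM in wild-type libraries against 168, 151 and 160 CPM in knockout libraries. The means were 176 ± 9.39 and 159 ± 8.27 CPM (SD, n = 3 each), a ratio of 0.906. Every knockout sum was below every wild-type sum, but the nearest pair differed by less than 1 CPM. Csf1r alone carried most of the gap. With Csf1r left out, an alternative chosen after seeing the data, the sums were 116, 121 and 110 CPM against 120, 104 and 116 CPM, the groups overlapped and the ratio was 0.982.

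To set the homeostatic state beside general myeloid RNA, the 9 genes were compared with 22 genes that microglia share with other myeloid cells. These summed to 311, 321 and 297 CPM in wild-type libraries against 295, 258 and 264 CPM in knockout libraries, a ratio of 0.880. Every knockout sum of these genes was below every wild-type sum. The homeostatic sum per myeloid sum was 0.557, 0.581 and 0.567 in the wild type against 0.569, 0.584 and 0.605 in the knockout. The groups overlapped, with a ratio of means of 1.03. Of the shared myeloid genes 1 of 22 was called by edgeR, against 3.33% of all genes. At an unadjusted p under 0.05 there were 4, against 18.6%, all lower in the knockout. Groups did not overlap for 5, also all lower, the direction in which 13.3% of all genes had no overlap. The called gene was Laptm5, a lysosomal protein of hematopoietic cells, which fell from 59.6 ± 2.32 to 42.8 ± 2.08 CPM (log2 fold change -0.48, adjusted p = 0.0341). The call was lost in each of the fits that left out 1 of the 6 libraries (adjusted p 0.0684 to 0.154), with no filter on low counts and with a replicate block (adjusted p = 0.160). The median of the 22 was -0.09 on the log2 scale, with 15 negative and 7 positive values, and a second ID of Itgam with 0 to 53 counts was not tested. The complement genes C1qa and C1qb, with the highest FPKM of the list, had log2 fold changes of -0.12 and -0.16, and C1qc, which had 32.5 ± 0.80 and 25.9 ± 3.59 CPM, one of -0.33 (adjusted p = 0.205, edgeR). Cd14 and Inpp5d had log2 fold changes of -0.86 and -0.40 (adjusted p = 0.11 and 0.12, edgeR). DESeq2 called Cd14 and Laptm5 of this list, and 1423 of all 18345 genes.

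Markers of other cells that could carry these genes are given beside them. Of 8 markers of border macrophages 0 were called by edgeR, against 3.33% of all genes, and 0 reached an unadjusted p under 0.05, against 18.6%. Their summed level was 16.7 to 17.4 CPM in wild-type libraries against 13.5 to 20.4 CPM in knockout libraries. Of 9 markers of infiltrating leukocytes only Ly6c2 had enough counts to be tested, and it fell from 9.08 ± 2.92 to 0.92 ± 0.14 CPM (log2 fold change -3.31, adjusted p = 0.00152). The summed level of the 9 was 6.96 to 12.4 CPM in Lgmn+/+-IR and 0.883 to 2.48 CPM in Lgmn-/--IR, nearly all of it Ly6c2 in the wild type. The fall of the sum is therefore that of Ly6c2 and does not describe infiltrating leukocytes as a group. Cd3e, Ms4a1 and Nkg7 were at 0 counts in all 6 libraries and Ccr2 had 1 to 8 counts. S100a8 and S100a9 reached 23 and 32 counts in Lgmn-/--IR replicate 1. Astrocyte, neuron, endothelial and mural markers had summed ratios of 1.03, 1.10, 1.10 and 0.837, sums in which abundant genes weigh most. Of the 6 astrocyte markers 3 had groups without overlap, against 25.7% of all genes. These were Aqp4, Gfap and Slc1a3, all higher in the knockout (log2 fold changes 0.55, 0.33 and 0.26). The most abundant, Slc1a2, had -0.06. The endothelial gene Slco1a4 had -0.86 (adjusted p = 0.0613, edgeR) and the other 4 endothelial markers 0.38 to 0.53. Of all of these only the astrocyte water channel Aqp4 was called by edgeR (adjusted p = 0.0374), against 3.33% of all genes.

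**Figure D4:**
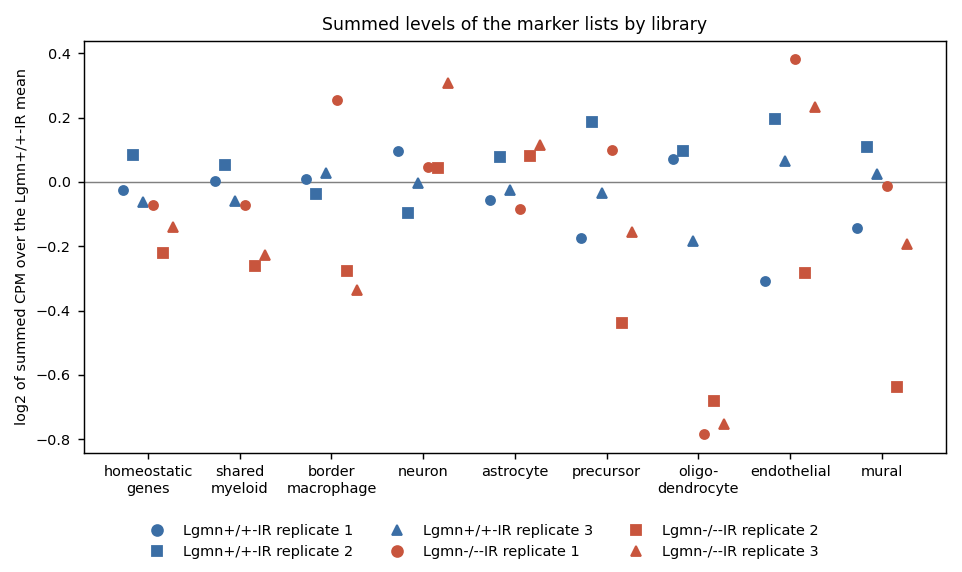
Summed CPM of each marker list in each library, as log2 over the mean of Lgmn+/+-IR (vertical axis), with Lgmn+/+-IR in blue and Lgmn-/--IR in red. The 9 homeostatic genes (ratio of means 0.906) and the shared myeloid genes (0.880) lie slightly below 0 in the knockout, beside a fall of the oligodendrocyte markers to 0.599, and the erythroid markers are off this scale and not drawn.

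A further 26 genes of the homeostatic state were read from the same fit. By edgeR 0 of 26 had an adjusted p under 0.05, against 3.33% of all genes, and 5 had an unadjusted p under 0.05, against 18.6%. DESeq2 called 4 of them (Fcrls, Golm1, Kcnk13 and Selplg), and 1423 of all 18345 genes. The median log2 fold change was -0.02. The 3 with the highest FPKM, none of them particular to microglia, were Cst3, which encodes cystatin C, at 900 ± 72.8 and 1070 ± 219 CPM, Bin1 at 255 ± 29.6 and 236 ± 21.9 CPM and Sparc at 229 ± 59.0 and 209 ± 40.7 CPM (SD, n = 3 each). The 4 genes that DESeq2 called are given with their edgeR values, chosen after these were seen. The Fc receptor-like gene Fcrls had 6.76 ± 0.68 and 4.44 ± 0.65 CPM (log2 fold change -0.61). Selplg, the P-selectin ligand, had 28.9 ± 2.38 and 43.2 ± 7.92 CPM (0.58), Golm1 had a log2 fold change of 0.39 and the potassium channel gene Kcnk13 one of 0.61. Their adjusted p ran from 0.0692 to 0.112 (edgeR).

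Beyond the ligands above, the upkeep list held the TGF-beta pathway and the proteases that shed fractalkine. Of its 15 genes 0 were called by edgeR, against 3.33% of all genes, and 2 reached an unadjusted p under 0.05, against 18.6%. DESeq2 called Smad3 alone of the list, and 1423 of all 18345 genes. Smad3, which carries the TGF-beta signal to the nucleus, had 87.6 ± 6.47 CPM in the wild type against 117 ± 8.98 CPM in the knockout (log2 fold change 0.42, adjusted p = 0.0766, edgeR). The receptor gene Tgfbr1 had 19.1 ± 1.98 and 15.1 ± 1.29 CPM (log2 fold change -0.34, adjusted p = 0.202). The other members had log2 fold changes of 0.25 for Tgfb1, 0.24 for Tgfbr2, 0.10 for Smad2, 0.06 for Smad4, -0.30 for Nrros, which presents TGF-beta on microglia, -0.29 for the integrin gene Itgav and -0.01 for Itgb8. The sheddase genes Adam10 and Adam17 had 0.35 and 0.14, and Nt5e, an ectonucleotidase that makes adenosine, had -0.58. Adam10 stood at 34.5 CPM in Lgmn+/+-IR replicate 1 and at 71.8 to 78.2 CPM in the other 5 libraries. Nt5e was also low in that library, at 4.08 CPM beside 10.5 and 11.9 CPM in the other wild-type libraries and 3.71 to 8.67 CPM in the knockout.

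Transcription factors of microglial identity other than Sall1 gave no call in edgeR and 1 in DESeq2. Of 11 tested, 0 had an adjusted p under 0.05 in edgeR, against 3.33% of all genes, and the median log2 fold change was 0.07. At an unadjusted p under 0.05 there was 1, against 18.6%. That gene was Bhlhe41, with 54.0 ± 4.15 and 40.8 ± 2.26 CPM (log2 fold change -0.40, adjusted p = 0.0843, edgeR). DESeq2 called it, and 1423 of all 18345 genes. Mef2c, also abundant in neurons, had 370 ± 48.5 and 373 ± 58.8 CPM, and Mef2a a log2 fold change of -0.11. The myeloid factor genes Spi1, which encodes PU.1, and Irf8 had log2 fold changes of 0.07 and 0.11. Sall3, a relative of Sall1, had 5.93, 8.52 and 8.22 CPM against 14.5, 9.37 and 7.56 CPM, so that its highest library was also Lgmn-/--IR replicate 1.

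Genes of disease-associated microglia, the state in which homeostatic genes are known to fall, were read beside them. Of 21 genes 19 were tested, and 1 was called by edgeR, against 3.33% of all genes. At an unadjusted p under 0.05 there were 7 of 19 genes, 5 higher and 2 lower in the knockout, against 18.6% of all genes. The 2 lower ones were Cd9 and Ctsl (log2 fold changes -0.35 and -0.24, adjusted p = 0.235 and 0.251, edgeR). Of the 19 log2 fold changes 11 were positive and 8 negative, with a median of 0.01. Spp1, which encodes osteopontin, rose from 3.18 ± 0.30 to 8.20 ± 1.01 CPM (log2 fold change 1.37, adjusted p = 0.00563), and the call was lost with a replicate block (adjusted p = 0.0536). Apoe, made mostly by astrocytes in the cortex, had 977 ± 73.8 and 1351 ± 136 CPM (log2 fold change 0.47, adjusted p = 0.0674). Named because other tools called them, Gpnmb, a glycoprotein of phagocytes, had 0.96, 1.24 and 1.47 CPM in wild-type libraries against 3.31, 1.92 and 2.14 CPM in knockout libraries (log2 fold change 1.00, adjusted p = 0.126, edgeR). The chemokine gene Ccl6 was below 1 CPM in every library (log2 fold change 2.21, adjusted p = 0.186, edgeR). Fth1 and Ctsd, the other 2 of the 3 with the highest FPKM, had log2 fold changes of 0.01 and -0.18. Clec7a had 2 to 6 and Cst7 0 to 6 counts per library, too few to be tested. In edgeR Spp1 was thus the only gene of this list past the adjusted threshold, while DESeq2 called Apoe, Gpnmb and Spp1 and limma on log2(FPKM + 1) Ccl6 and Spp1. These 2 settings called 1423 and 571 of all 18345 genes.

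**Figure D5:**
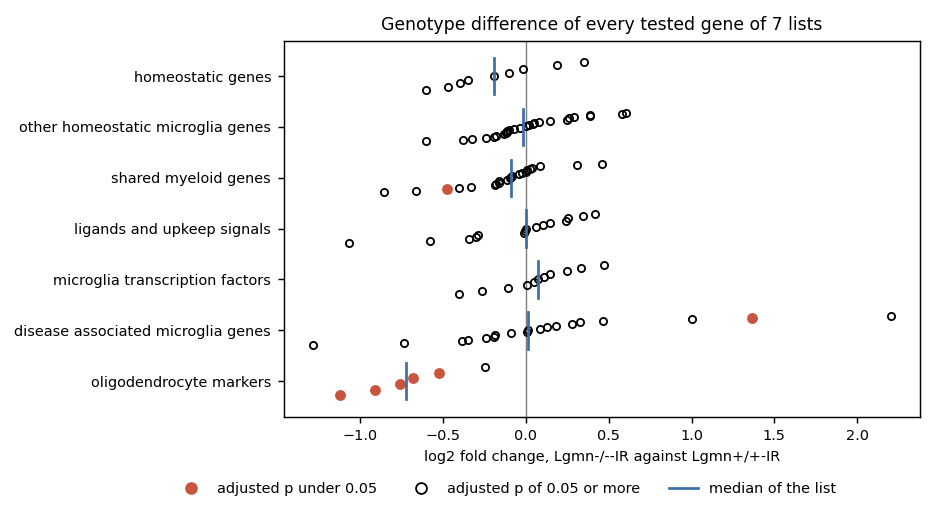
log2 fold change, Lgmn-/--IR against Lgmn+/+-IR (horizontal axis), of every tested gene in 7 lists, filled red at an adjusted p under 0.05, with the median of each list as a blue line. The 9 homeostatic genes have a median of -0.19 and no call in edgeR, the test drawn here. Of the 6 oligodendrocyte markers it calls 5 lower, against 3.33% of all genes called in either direction.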

How the data were processed

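The raw count of reads per gene and the FPKM of each gene were deposited by the authors for 6 libraries. Per the study's methods, Trimmomatic 0.36 cleaned the reads, HISAT2 aligned them and StringTie gave the FPKM. The submitters' processing notes name GRCm38. The read counter and its strand setting are not given in the sources used here.

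Counts were fitted with edgeR 4.0.16 in R 4.3.3 (TMM, filterByExpr by genotype, quasi-likelihood F-test, genotype the sole factor, adjustment by Benjamini-Hochberg over 18345 genes), tested first on simulated data. The paper names limma for this step without its input values. A gene is called at an adjusted p under 0.05. CPM are TMM-scaled counts, and log2 fold changes are fitted, Lgmn-/--IR against Lgmn+/+-IR. Standard errors come from the F statistic. Sums over lists carry no test. Counts of reads without molecular identifiers are not counts of molecules.

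The genes and all lists were chosen with earlier results of these data known. Named are the 9 genes, Lgmn, every called gene of a list and otherwise its 3 genes of highest FPKM, all ligand-list genes, the locus neighbours (some genes of these lists are not reported here) and the 10 genes nearest in pattern. Positions and exon overlaps come from GENCODE M21 (51633 IDs matched), and promoter windows from RefSeq. Replicate numbers come from the labels, which state no pairing, and the main fit did not pair the libraries. The alternatives were DESeq2 1.42.0, limma 3.58.1 (voom, and log2(FPKM + 1 or + 0.1)), other normalizations and filters, a replicate block and leaving out each library.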

Additional observations from a re-analysis of the deposited data

How the results depend on the processing

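Over 16 alternatives, Csf1r was called by DESeq2 (-0.39, adjusted p = 0.0127) and by no other setting, which made 1 of the 9 genes called there and 0 elsewhere, leaving out each library included. P2ry13 and Sall1 kept a positive log2 fold change (0.09 to 0.38 and 0.10 to 0.49), and Cx3cr1 (-1.04 to -0.30), Csf1r (-0.43 to -0.34), Siglech (-0.61 to -0.18), Gpr34 (-0.30 to -0.02) and Olfml3 (-0.89 to -0.08) a negative one. P2ry12, at -0.194 to 0.0194 with single libraries left out, turned positive without Lgmn-/--IR replicate 2. Tmem119, at -0.0997 to 0.0443, did so without Lgmn+/+-IR replicate 2 or Lgmn-/--IR replicate 1 or 3. Csf1 was positive with DESeq2 (0.0088), limma-voom (0.0111), RLE normalization (0.0087), no filter on low counts (0.0083) and the replicate block (0.0089), and ran from -0.1191 to 0.1011 with single libraries left out. Il34 was positive with DESeq2 (0.0047), RLE normalization (0.0046) and no filter (0.0039), and ran from -0.0745 to 0.0488. The cause was not tested.

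DESeq2 called 4 other homeostatic genes, 2 shared myeloid genes, 1 upkeep gene, 1 transcription factor and 3 disease-associated genes, and 1423 genes in all against 611 with edgeR. limma on log2(FPKM + 1) called 2 disease-associated genes. Without any filter 0 shared myeloid genes were called, among 404 genes in all, and 406 genes were called with at least 10 counts in every library. Leaving out single libraries, which left 223 to 500 calls, gave 0 shared myeloid genes, 0 to 1 upkeep genes (Cx3cl1 without Lgmn-/--IR replicate 2) and 1 to 2 disease-associated genes. Lgmn lost its call with no filter and without any 1 of the wild-type libraries or Lgmn-/--IR replicate 1 (adjusted p 0.0632 to 0.131). With the sums reduced after seeing the data, the ratio of the homeostatic sum was 0.982 without Csf1r, and that per myeloid sum was 1.07 without Csf1r and Laptm5.

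Same-numbered libraries are different animals, and the labels state no pairing. Their deviations from the group means correlated at -0.30, -0.05 and -0.05 (over genes), which cannot exclude a shared litter or batch. With the replicate block, 150 genes were called in all, 0 of the 9 homeostatic genes, 0 shared myeloid genes and 0 disease-associated genes, and Lgmn had an adjusted p of 0.113.

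With 3 libraries a group, Cx3cr1 and Olfml3 have intervals that reach beyond a 2-fold fall, and Siglech rests on as few as 99 counts in a library. No non-irradiated library was compared, so no value speaks to what irradiation did to these genes. Bulk RNA does not tell cell number from RNA per cell.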

Other observations

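Genes low in single libraries were counted because Olfml3 and Cx3cl1 had such a pattern, so the rule was chosen after their values were seen. A tested gene counted as low in a library when its CPM there was under 40% of the lowest of the other 5 libraries, all of them at 5 CPM or more. Olfml3 was 1 of 11 such genes in Lgmn-/--IR replicate 1, beside Chmp3, Pigk, Rgs6 and others. Lgmn+/+-IR replicate 1 had 24 such genes, and the other 4 libraries 7 to 10. No other homeostatic gene met the rule. Siglech and Cx3cr1 could not meet it in any single library, since in each case another library was under 5 CPM.

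Cx3cl1 was 1 of 7 genes low in the same sense in Lgmn-/--IR replicates 1 and 3 together, against 1 to 3 genes for each of the other 14 pairs of libraries. The 7 were Cipc, Ctdsp2, Cx3cl1, Dcun1d2, Rps2, Srgap3 and Zfx. Srgap3, which encodes a GTPase-activating protein of neurons, had 294, 282 and 295 CPM in Lgmn+/+-IR and 56.5, 334 and 65.1 CPM in Lgmn-/--IR, so that replicate 2 was the highest of the 6 libraries, as it was for Cx3cl1.

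The pattern of every gene over the 6 libraries was also compared with the mean profile of the 9 homeostatic genes. Among 15010 tested genes with a mean of at least 1 CPM, the 10 nearest by root mean square difference of centred log2 CPM were Rap1a (0.027), Ralgapa2, Itpr3, Them4, Cpt1a, B4galt1, Gm7432, Lfng, Bbs5 and Ggt1 (0.047). None of these 10 is in a list used here. Of 46 other homeostatic and shared myeloid genes, 2 (4.35%) were among the nearest 100, which are 0.666% of all genes ranked.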
